A study of Mus musculus with 50 samples.

Results

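The genes described here build and run the mitotic apparatus: the cyclin-dependent kinase that starts mitosis, the spindle checkpoint, the kinetochore, the mitotic kinases and kinesins, and the machinery of cytokinesis, with Mki67 (the antigen Ki-67, which coats mitotic chromosomes) as the usual marker of cycling cells. They were named in a list of 34 genes, and each gene was read from the probe set that the platform annotation pairs with that gene alone, taking the one with the highest mean. Of the 34, 33 were measured, out of 22180 genes on the array. No probe set was paired with Ccnb1 alone, so cyclin B1 is not described. Each of the 33 had 1 such probe set, and all 33 passed a filter on low values, a mean of at least 4.39 log2, which left 16635 genes tested.

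RNA came from 50 mammary tumours, 1 array each, and all formed 1 group. The tumours arose spontaneously in female backcross mice, (C57BL/6J x FVB/NJ) F1 crossed to FVB/NJ MMTV-Erbb2, so the mice can differ in their mixture of C57BL/6J and FVB/NJ alleles, and every group member carried the Erbb2 transgene by its label. The mouse mammary tumour virus promoter drives that transgene chiefly in mammary epithelium. Tumours were sampled before treatment, and the labels name the drug as docetaxel in one field and doxorubicin in another. Age, response, array batch and RNA quality are not in the labels, so no treated or normal tissue was compared and every comparison below runs across tumours. Values are log2 expression, and the number of arrays limits the precision. The p-values measure the spread between tumours, and the labels do not say whether any of them came from the same mouse.

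In dividing cells these genes are transcribed late in the cycle, from S phase into mitosis, and their products are then destroyed. In resting cells the DREAM complex, made with the retinoblastoma relatives and MuvB proteins, holds many of them off, and MYBL2 and FOXM1 bound to the same MuvB core switch them on. The promoters of many such genes carry a short element called CHR (cell cycle genes homology region), often close to CCAAT boxes, which the factor NF-Y binds. In bulk tissue a high level can mean more cycling cells or more of each RNA in a cell, and these cannot be told apart here.

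Promoters of 28 of the 33 genes were found in RefSeq (build GRCm38.p6), each 250 bases before and 50 after the start of the gene. Ccna2, Tpx2, Aurkb, Incenp and Kif20a are named only. The sequences below are those of the 4 genes that followed the rest of the set most closely and the 2 that followed it least, among genes with a promoter, and they are shown so that the shared letters can be seen. Capitals mark each match, on either strand, to CHR (TTTGAA or TTCGAA) and to CCAAT, so a match on the other strand reads TTCAAA or ATTGG.

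Kif11, chr19:37376132-37376431, plus strand: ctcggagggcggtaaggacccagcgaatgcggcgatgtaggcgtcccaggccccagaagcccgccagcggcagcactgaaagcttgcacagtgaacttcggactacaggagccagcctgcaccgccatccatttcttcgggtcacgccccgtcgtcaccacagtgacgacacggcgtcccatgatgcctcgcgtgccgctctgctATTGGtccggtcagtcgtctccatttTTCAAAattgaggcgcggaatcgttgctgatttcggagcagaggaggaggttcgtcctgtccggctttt

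Cenpe, chr3:135212313-135212612, plus strand: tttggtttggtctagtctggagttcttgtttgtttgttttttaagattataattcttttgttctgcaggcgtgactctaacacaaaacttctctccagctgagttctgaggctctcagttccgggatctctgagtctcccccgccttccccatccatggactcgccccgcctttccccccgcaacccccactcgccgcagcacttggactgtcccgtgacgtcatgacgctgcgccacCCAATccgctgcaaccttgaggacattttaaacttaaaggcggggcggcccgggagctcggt

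Racgap1, chr15:99651607-99651906, minus strand: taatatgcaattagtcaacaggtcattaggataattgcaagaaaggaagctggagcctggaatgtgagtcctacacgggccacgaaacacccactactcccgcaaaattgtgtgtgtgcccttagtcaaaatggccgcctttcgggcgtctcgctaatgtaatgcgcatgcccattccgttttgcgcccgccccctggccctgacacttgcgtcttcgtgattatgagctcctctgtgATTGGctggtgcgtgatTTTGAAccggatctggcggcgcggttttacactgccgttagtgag

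Ect2, chr3:27153829-27154128, minus strand: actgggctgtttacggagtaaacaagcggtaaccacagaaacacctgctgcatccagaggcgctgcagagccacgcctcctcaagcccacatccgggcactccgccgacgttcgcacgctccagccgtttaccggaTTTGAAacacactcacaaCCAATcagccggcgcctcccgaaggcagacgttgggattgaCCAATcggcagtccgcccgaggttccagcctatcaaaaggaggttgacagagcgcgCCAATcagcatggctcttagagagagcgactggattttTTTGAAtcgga

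Cdca8, chr4:124936868-124937167, minus strand: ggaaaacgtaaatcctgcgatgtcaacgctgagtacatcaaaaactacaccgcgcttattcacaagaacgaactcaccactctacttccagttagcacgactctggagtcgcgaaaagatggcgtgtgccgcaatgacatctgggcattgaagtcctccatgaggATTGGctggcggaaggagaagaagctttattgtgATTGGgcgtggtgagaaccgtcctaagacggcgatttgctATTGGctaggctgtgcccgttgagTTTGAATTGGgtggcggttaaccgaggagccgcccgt

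Bub3, chr7:131560120-131560419, plus strand: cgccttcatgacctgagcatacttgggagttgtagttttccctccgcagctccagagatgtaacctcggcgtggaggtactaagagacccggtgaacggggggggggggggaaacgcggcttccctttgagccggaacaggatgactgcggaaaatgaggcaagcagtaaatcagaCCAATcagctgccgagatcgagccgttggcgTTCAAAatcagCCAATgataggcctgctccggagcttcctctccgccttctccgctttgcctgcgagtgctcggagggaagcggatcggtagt

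The 4 closest followers encode a spindle motor (Kif11), a kinetochore motor (Cenpe) and a pair of cytokinesis regulators (Racgap1, Ect2). The other 2 encode the borealin subunit of the passenger complex (Cdca8) and a checkpoint protein (Bub3). In Cdca8 the CHR match and a CCAAT match on the other strand share letters, and they are capitalised as 1 run. Ect2 and Bub3 each have 2 promoters in the table, and the first is shown. Of these 6 promoters 5 held a CHR match and all 6 a CCAAT match, so neither the closest nor the loosest followers were set apart by them. Cenpe, with no CHR match in this window, was among the closest.

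Over the 28 promoters, 23 (82.1%) held a CHR match, against 19.4% of all 27025 promoters in the table and 14.3% of those of tested genes. A match within 50 bases of the start was found in 21 of 28 (75.0%), against 5.29% of all promoters. CCAAT was found in 21 (75.0%, against 37.9% of all promoters and 37.5% of those of tested genes), and both letters together in 20 (71.4%, against 7.70%). The E2F site, written TTCCCGC or TTGGCGC on either strand, was found in 3 (Mki67, Cdk1 and Ect2; 10.7%, against 6.93% of all promoters and 10.8% of those of tested genes, close to the share of the set), and in Ect2 it overlaps a CCAAT match. CHR matches lay between positions -188 and 40, counted in bases from the start. No CHR match was present in the windows of Mad2l1, Nusap1, Birc5, Nuf2 and Cenpe. These are letters in a window of fixed length, not sites shown to be bound.

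**Figure D1:**
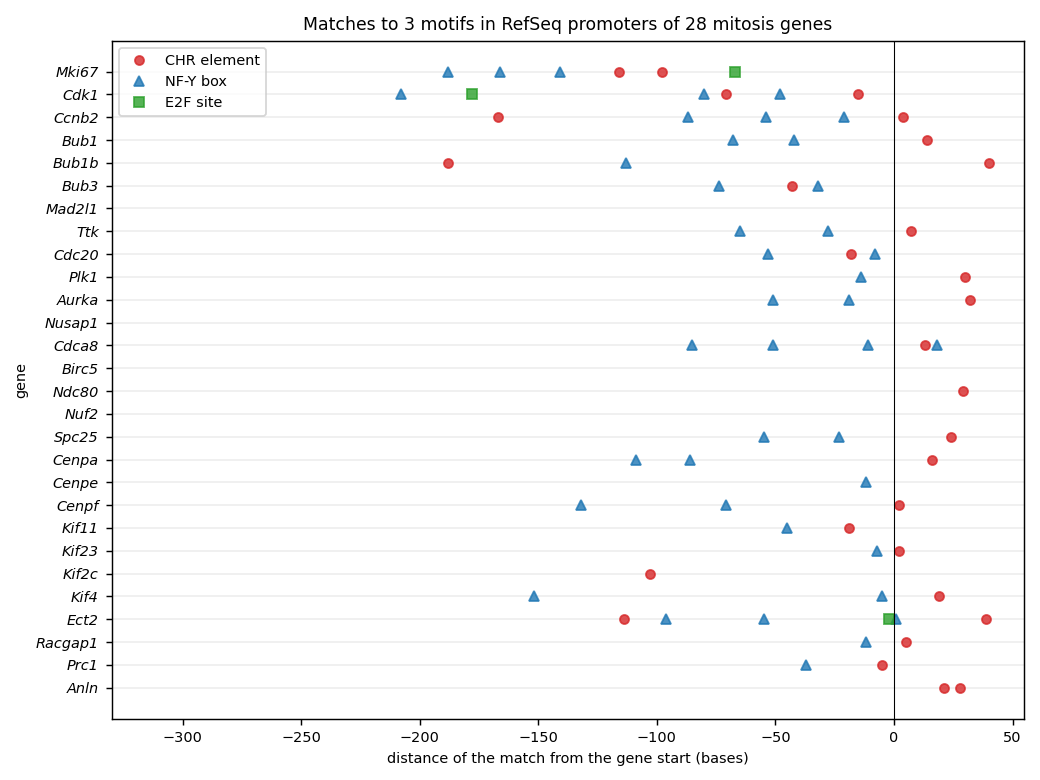
Distance of each match from the gene start, in bases (x axis), in the RefSeq promoters of 28 genes (y axis), with CHR elements as circles, CCAAT boxes (drawn as NF-Y boxes) as triangles and E2F sites as squares. CHR matches gather near the start, with 22 of 29 between 50 bases before it and 49 after.

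The set spread widely. The median gene had an SD of 0.54 over the 50 tumours, from 0.19 (Bub3) to 0.71 (Ect2), while the median over all tested genes was 0.24. In 31 of 33 genes the 5th and 95th percentiles of the tumours differed at least 2-fold, which held for 25.5% of all tested genes. Without the 3 arrays that correlated least with the rest (mid79, mid60 and mid100), the median SDs were 0.45 for the set and 0.21 for all tested genes.

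Mki67 ran from 7.54 in tumour mid79 through a median of 10.12 to 10.83 in mid105. The next lowest value was 8.75 (mid54), so the bottom of the range is 1 tumour, and the 5th and 95th percentiles, 8.96 and 10.51, differed 2.94-fold. Of the partners that start mitosis, Cdk1 (the mitotic kinase) ran from 5.55 (mid79) through 8.15 to 9.16 (mid7). Ccnb2 (cyclin B2) ran from 6.51 (mid79) through 9.13 to 10.07 (mid87). Ccna2 (cyclin A2) ran from 6.42 (mid79) through 8.74 to 9.58 (mid47). Each was lowest in mid79, well below the next tumour (6.93, 7.57 and 7.32 log2), and their highest values lay in different tumours.

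Among genes of the spindle checkpoint, which holds anaphase until every kinetochore is attached, Bub1 (a kinase at the kinetochore) ran from 4.30 (mid79) through 6.75 to 8.21 (mid105). Bub1b (the BubR1 pseudokinase) had an SD of 0.57, Ttk (the MPS1 kinase) 0.49, and Mad2l1 (the inhibitor of Cdc20) 0.47. Cdc20, the activator of the anaphase-promoting complex that the checkpoint restrains, ran from 6.39 (mid79) through 7.55 to 8.55 (mid47). Bub3, which carries Bub1 and BubR1 to the kinetochore, differed from these. It ran from 8.96 (mid101) through 9.35 to 9.79 (mid60), a 1.5-fold span between the 5th and 95th percentiles, and mid79 was not its lowest tumour.

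The mitotic kinases and their spindle partners spread about as much as the cyclins. Tpx2, the activator of Aurora A on the spindle, ran from 5.43 (mid79) through 8.33 to 9.37 (mid105). Plk1 (polo-like kinase, needed for entry and exit) had an SD of 0.55, Aurka (Aurora A) 0.52 and Nusap1 (a microtubule bundler) 0.50. In the chromosomal passenger complex, which corrects wrong attachments, SDs ran from 0.32 to 0.54. Birc5 (survivin) ran from 3.61 (mid79) through 5.40 to 6.50 (mid85). Aurkb (its kinase) had an SD of 0.41 and Cdca8 (borealin) 0.43. Incenp (its scaffold) had one of 0.32 and spanned 1.99-fold between percentiles, so that it and Bub3 were the 2 genes under 2-fold.

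At the kinetochore, the microtubule-binding Ndc80 complex gave SDs of 0.52 (Ndc80), 0.55 (Nuf2) and 0.42 (Spc25). Cenpa, the histone H3 variant that marks the centromere, gave 0.43, and the large corona protein Cenpf 0.54. Cenpe spanned 4.01-fold between percentiles, the only gene of the set past 4-fold, from 5.71 (mid79) through 7.84 to 9.0 (mid47). Among the kinesins, Kif11 (which separates the poles) ran from 5.28 (mid79) through 8.02 to 8.92 (mid105). SDs were 0.58 for Kif20a and Kif23 (both of the central spindle), 0.51 for Kif2c (a microtubule depolymerase) and 0.43 for Kif4 (a chromokinesin).

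Among genes of cytokinesis, Ect2, the exchange factor that switches on RhoA at the cleavage site, ran from 5.62 (mid79) through 9.02 to 10.07 (mid7). Its lowest and highest tumours differed 21.9-fold, but the next lowest value was 7.34 (mid2), and the percentiles differed 3.85-fold. Racgap1, which binds Kif23 in centralspindlin, had an SD of 0.50. Prc1, the bundler of the central spindle, had one of 0.57, and Anln (anillin, the scaffold of the ring) one of 0.52.

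**Figure D2:**
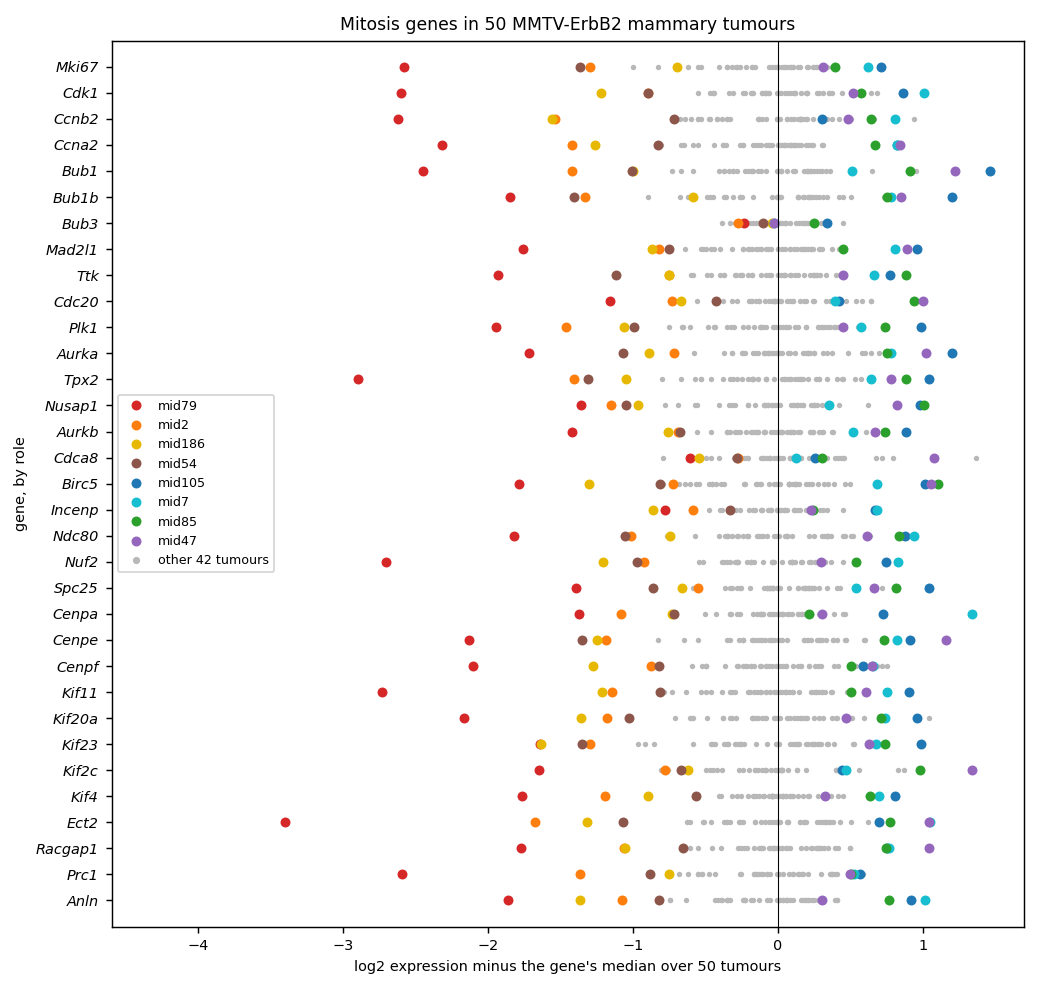
Log2 expression minus the gene's own median (x axis) for each of the 33 genes (y axis, ordered by role), 1 point a tumour, with 8 tumours coloured and the other 42 in grey. The red points of mid79 are the lowest in 30 of 33 rows, and those of mid2, mid186 and mid54 lie left of the zero line in every row.

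The order of the tumours was largely the same for every role. Tumour mid79 was the lowest of 50 for 30 genes and within the lowest 5 for all 33, at a median of -1.85 log2 units against the gene medians, or 0.277 of the median level. The exceptions to lowest place were Bub3, Cdca8 (lowest in mid82, at 5.53) and Incenp (lowest in mid186, at 5.84). Tumours mid2, mid186 and mid54 followed, with medians of -1.08, -0.97 and -0.87, and were within the lowest 5 for 32, 28 and 29 genes. At the top mid105 was highest for 12 genes, at a median of 0.86 log2 units above, and within the highest 5 for 28. Tumours mid85, mid7 and mid47 lay at 0.74, 0.69 and 0.65.

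Tumour mid79 also stood apart in markers of cell types. In mid79, 6 of 7 epithelial markers were at their lowest of 50 tumours. Their mean level was 6.99 log2 there and 9.24 to 10.33 in the other 49, so the markers of the labelled tissue were lowest there. All 12 adipocyte markers were at their highest in mid79, with a mean of 11.19 against 5.79 to 7.84, as were 14 of 18 endothelial and 6 of 13 T and NK cell markers. The epithelial scores of mid2, mid186 and mid54 were -0.27, 0.38 and -0.58, in SD over the tumours, and the score of mid54 was the fourth lowest of all. In the same order their adipocyte scores were -0.41, 0.21 and -0.08, their fibroblast scores -1.28, 0.85 and 0.57, and their macrophage scores 0.26, 0.81 and 0.22. Their endothelial scores were -0.70, 0.15 and 0.28 and their T and NK cell scores -0.80, -0.93 and 0.33. The part that cell composition played in the levels of these tumours was not tested. Array mid79 also had the lowest mean correlation with the others, 0.916, where the median array had 0.978.

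The 33 genes rose and fell together. Over 528 pairs the median Pearson r was 0.85, from 0.28 (Bub3 with Cdca8) to 0.96 (Ccna2 with Ect2), and all 528 were above 0. The median was 0.81 without the 3 arrays and Spearman's rho had a median of 0.75. These are descriptions over 50 tumours that share arrays and normalization. The first principal component held 81.7% of the variance of the standardised genes and the second 4.26%. Pairs within a role (median r 0.86, 61 pairs) and between roles (0.84, 467 pairs) had close medians.

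Each gene was then set against the mean of the other 32. Ccna2 had the highest r, 0.970, followed by Tpx2 at 0.965, Kif11 at 0.963, Cenpe at 0.956, Racgap1 at 0.954 and Ect2 at 0.953. Neighbours in that order lie close together, and their order was not tested. Mki67 itself had 0.909. The lowest were Bub3 at 0.498, Cdca8 at 0.593, Incenp at 0.798, Cdc20 at 0.815 and Kif2c at 0.826. Without the 3 arrays Bub3 stayed at 0.498 and Cdca8 at 0.578, so the low values did not come from those arrays.

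**Figure D3:**
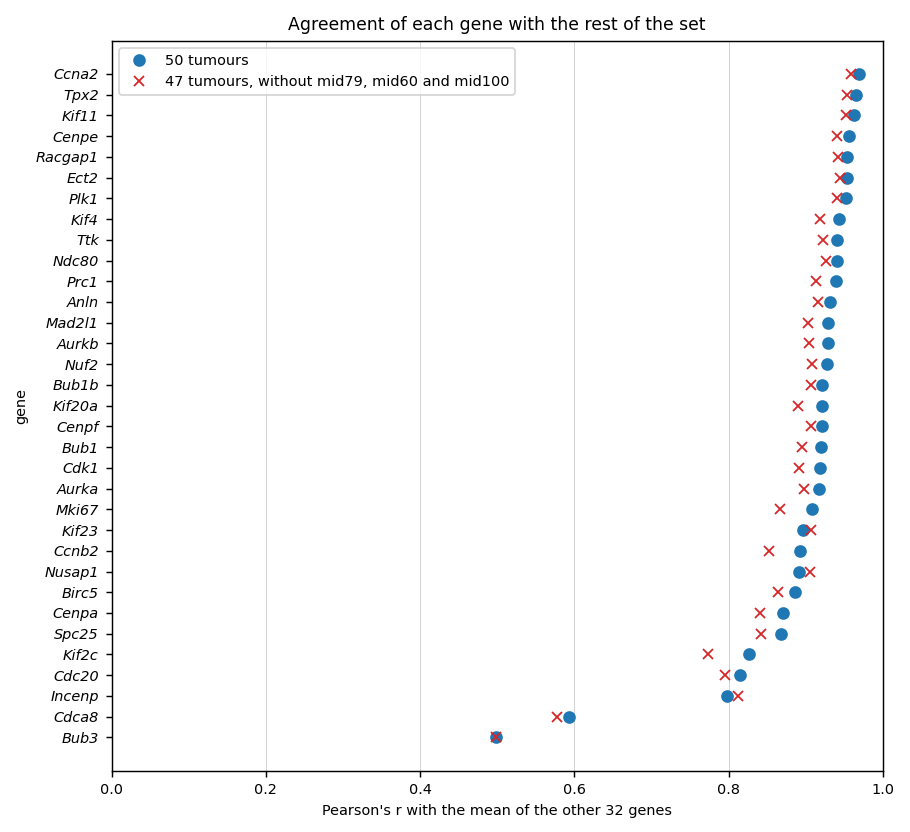
Pearson's r of each gene with the mean of the other 32 (x axis, from 0 to 1), genes ordered by it (y axis), for all 50 tumours as circles and for 47 tumours as crosses. Bub3 and Cdca8 stand apart from the rest, at 0.498 and 0.593.

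Pairs whose proteins work together, named by complex, were tested with regulators in a family of 22 pairs. The test was by permutation (100000 permutations, two-sided, Benjamini-Hochberg adjusted), and 20 of 22 passed. The smallest p such a test can give is 1e-05. All 528 pairs of the set had r above 0 and 494 had r above 0.5, at a median of 0.85. A pass therefore does not set partners in a complex apart from other pairs of the set. Aurora A and its activator, Aurka and Tpx2, had r of 0.93 and rho of 0.88 (permutation p 1e-05, adjusted 1.57e-05 for both), and r of 0.92 without the 2 tumours farthest from the median. Ect2 and Racgap1 had r of 0.92 and rho of 0.86 (the same p and adjusted p), and 0.90 without the 2. Bub1 and Bub3, which bind each other, had r of 0.46 and rho of 0.50 (permutation p 0.00057 and 0.00028, adjusted 0.000697 and 0.000362), and 0.38 without the 2. Aurkb and Cdca8, in one complex, had r of 0.61 and rho of 0.57 (p 1e-05 and 3e-05, adjusted 1.57e-05 and 4.4e-05 by permutation), and 0.60 without the 2. Partners in a complex thus differed from 0.46 to 0.93 in r. The 32 pairs with Bub3 had a median r of 0.47. Aurka and Tpx2 both lie on chromosome 2, whose 15 pairs had a median r of 0.91.

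Slopes of every tested gene were then fitted on one predictor at a time with limma, in log2 units per SD of the predictor, with p adjusted over all genes tested. With Mki67 as predictor, 32 of the 32 other genes rose, where 9.85% of all genes did and 7.78% fell. Their median slope was 0.44, against 0.01 for all genes, and ran from 0.11 (Bub3) to 0.63 (Ect2). Plk1 had the firmest slope, 0.51 ± 0.03 (SE, n = 50, limma adjusted p 8.29e-20), and Prc1, Tpx2 and Ect2 followed. Plk1 and Prc1 lie on chromosome 7 with Mki67, as does Bub3, and genes of the same chromosome are compared below. The part of a shared chromosome in these slopes was not tested. Cdca8 had 0.21 ± 0.05 (limma adjusted p 0.00289) and Bub3 0.11 ± 0.02 (0.000977). Without the 3 arrays all 32 were again called, at a median slope of 0.35. Markers of some cell types moved with Mki67 in all 50 tumours, as 6 of 7 epithelial markers rose, and 10 of 12 adipocyte, 17 of 18 endothelial and 5 of 21 fibroblast markers fell. Only 1 of 18 macrophage and 1 of 13 T and NK cell markers fell, shares not above the 7.78% of all genes. With those arrays left out, 2 of 18 macrophage markers fell and 0 of the other lists named here were called.

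Outside the set, the 10 genes with the largest moderated statistic on Mki67 were Dlgap5 (a spindle protein), Top2a (topoisomerase II alpha), Kif22, Hmmr, Knl1 (the kinetochore scaffold), Shcbp1, Cdc25c (the phosphatase that activates Cdk1), Ckap2, Kif20b and Cip2a. Their slopes ran from 0.44 (Kif22) to 0.56 (Top2a). The largest negative statistics were those of Cyp4v3 (-0.53 ± 0.07, limma adjusted p 2.69e-08), Fbxo4, Dusp3, the locus named Mir143 and Mpdz.

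Of 103 other mitosis genes tested, 81 rose with Mki67 and 2 fell, and 71 rose and 0 fell without the 3 arrays. The 2 that fell were Zwint (a kinetochore protein, -0.09, limma adjusted p 0.0194) and Rhoa (the GTPase at the cleavage furrow, -0.06, 0.0442). All 7 condensin subunits and all 7 other kinesins rose, with median slopes of 0.25 and 0.39, and 10 of 11 constitutive centromere proteins did, at 0.27. Of 11 subunits of the anaphase-promoting complex, the ligase that Cdc20 activates, 1 rose (Anapc2), a share close to that of all genes, at a median slope of 0.03. Of 5 cohesin genes 2 rose (Rad21 and Smc3), at 0.03. These 5 groups were drawn from the list after its values were seen, and no difference between them was tested. Of 40 replication genes, 36 rose.

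With Foxm1 as predictor all 33 genes rose, where 8.27% of all genes did and 4.17% fell. Foxm1 ran from 5.79 (mid79) through 6.67 to 7.41 (mid7), and the median slope of the set was 0.44, from 0.09 (Bub3, limma adjusted p 0.0151) to 0.60 (Ect2). Ccna2 was the firmest, at 0.50 ± 0.03 (limma adjusted p 1.36e-15), then Racgap1 and Mad2l1. Without the 3 arrays all 33 were called, at a median of 0.36. Markers of other cells moved with Foxm1 as well. In all 50 tumours 6 of 7 epithelial markers rose, while 8 of 12 adipocyte, 10 of 18 macrophage, 4 of 18 endothelial, 2 of 21 fibroblast and 2 of 13 T and NK cell markers fell. Leaving out those arrays, 7 of 18 macrophage markers still fell and 0 of the other lists were called, and the part of macrophages in the slopes on Foxm1 was not tested. Foxm1 and Mki67 were read from the same arrays, so their fits are not independent. Outside the set Prr11, Kif20b, Cdca2, Dlgap5, Iqgap3, Kif14, Ncapd2, Top2a, Cep55 and Kif22 had the largest statistics, and Abca1 (a lipid exporter, -0.38 ± 0.06, limma adjusted p 4.01e-06), Nek7, Srgn, Lipa and Cyp4v3 the largest negative ones.

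Among 29 regulators of the cell cycle, 11 rose with Mki67 and 1 fell, beside 9.85% and 7.78% of all genes, and 7 rose and 1 fell without the 3 arrays. E2f8 (an atypical repressor among the E2F factors) had the largest slope, 0.42 ± 0.04 (limma adjusted p 8.54e-11). Then came Ccnd1 (cyclin D1) at 0.31, Foxm1 at 0.27, Rbl1 (p107) at 0.20 and Mybl2 (B-Myb) at 0.17. The gene that fell was Rb1, the retinoblastoma protein, at -0.24 ± 0.07 (limma adjusted p 0.0109), and at -0.25 without the 3 arrays (0.0293). With Foxm1 as predictor, 13 of 28 regulators rose, and Rb1 was again the 1 that fell, at -0.33 ± 0.06 (limma adjusted p 0.00014). Its slope was also -0.33 without the 3 arrays (0.000413). Neither the MuvB genes Lin37, Lin52 and Lin54 nor Nfya, Nfyb and Nfyc passed in either fit, whereas Lin9 rose in both.

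In the family of 22 pairs, Mki67 and Foxm1 had r of 0.78 and rho of 0.79 (permutation p 1e-05, adjusted 1.57e-05 for both), and 0.76 without the 2 farthest tumours. Mki67 and Mybl2 had 0.56 and 0.52 (permutation p 2e-05 and 0.00011, adjusted 2.93e-05 and 0.000151), and 0.49. Mki67 and Cdkn1b, the inhibitor p27, had r of 0.48 (permutation p 0.00102, adjusted 0.00112), but rho of 0.21 (adjusted 0.158), and 0.24 without mid79 and mid54 (adjusted 0.108). Without mid79, mid60 and mid100 r was 0.29 (permutation p 0.051, adjusted 0.0561). Tumour mid79 was left out in both runs, and no run left out mid54 alone. Neither Cdkn1a (p21; r -0.12 and rho -0.18, permutation p 0.414 and 0.222, adjusted 0.414 and 0.233; -0.09 without the 2) nor Myc (r 0.21 and rho 0.09, p 0.135 and 0.524, adjusted 0.142 and 0.524; -0.12 without the 2) passed.

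Erbb2, the gene of the transgene that these mice carry by their label, ran from 9.02 (mid60) through 11.71 to 11.94 (mid101). Whether its probe set reads the transgene, the mouse's own gene or both was not tested. With Erbb2 as predictor 23 of 33 genes rose in limma, where 18.1% of all genes did, and Nuf2 was the firmest, at 0.30 ± 0.07 (limma adjusted p 0.000402). None of the set fell, where 14.9% of all genes did. This count rested on mid79, whose Erbb2 level was 4.32 SD below the mean. Without mid79 alone, 0 of 33 passed (1 at an unadjusted p under 0.05), at a median slope of 0.03 against 0.20 with it. Without mid60, where Erbb2 was 4.75 SD below the mean and Mki67 0.15 SD above it, the median slope was 0.28. Slopes then ran from 0.03 (Bub3) to 0.51 (Ect2). With both left out, 0 passed (10 at an unadjusted p under 0.05), at a median slope of 0.09. Of the other mitosis genes, Spag5 (a spindle protein), Pbk (a mitotic kinase) and Cenpo were the firmest with Erbb2, at 0.45, 0.40 and 0.15 (limma adjusted p 4.83e-06, 2.05e-05 and 0.000257). Without the 3 arrays none of these passed (0.542, 0.596 and 0.243). The 10 genes not called in all 50 tumours included Bub3, Cdca8, Cdc20, Incenp and Kif2c, with slopes of -0.02, 0.00, 0.05, 0.06 and 0.09.

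The score of T and NK cell markers gave the opposite sign. In all 50 tumours 21 of 33 genes fell as it rose, where 15.6% of all genes did and 11.5% rose, at a median slope of -0.20. Without mid79 alone, whose score was 3.72 SD above the mean, 0 passed in limma (0 at an unadjusted p under 0.05), at a median of -0.04. With the fibroblast score 16.1% of all genes fell and 12.6% rose. In the set 4 of 33 fell, a share below that of all genes: Ccnb2, Cdk1, Mad2l1 and Ndc80. Their slopes were -0.23, -0.20, -0.17 and -0.18. Without mid79 alone, 0 passed, and without mid100 alone 2. The hypoxia score called 0 of 33 (0 at an unadjusted p under 0.05), where 0.548% of all genes rose and 0.0301% fell. The milk protein score called 0 (1 at an unadjusted p under 0.05), where 1.15% of all genes rose and 0.692% fell, and the median slope was -0.03. Without mid79 alone 1 gene, Incenp, fell (14 at an unadjusted p under 0.05), at a median slope of -0.12. Cdc27, a subunit of the anaphase-promoting complex, fell with the milk score at -0.09 ± 0.02 (limma adjusted p 0.0227), and at -0.08 without the 3 arrays (0.0422).

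**Figure D4:**
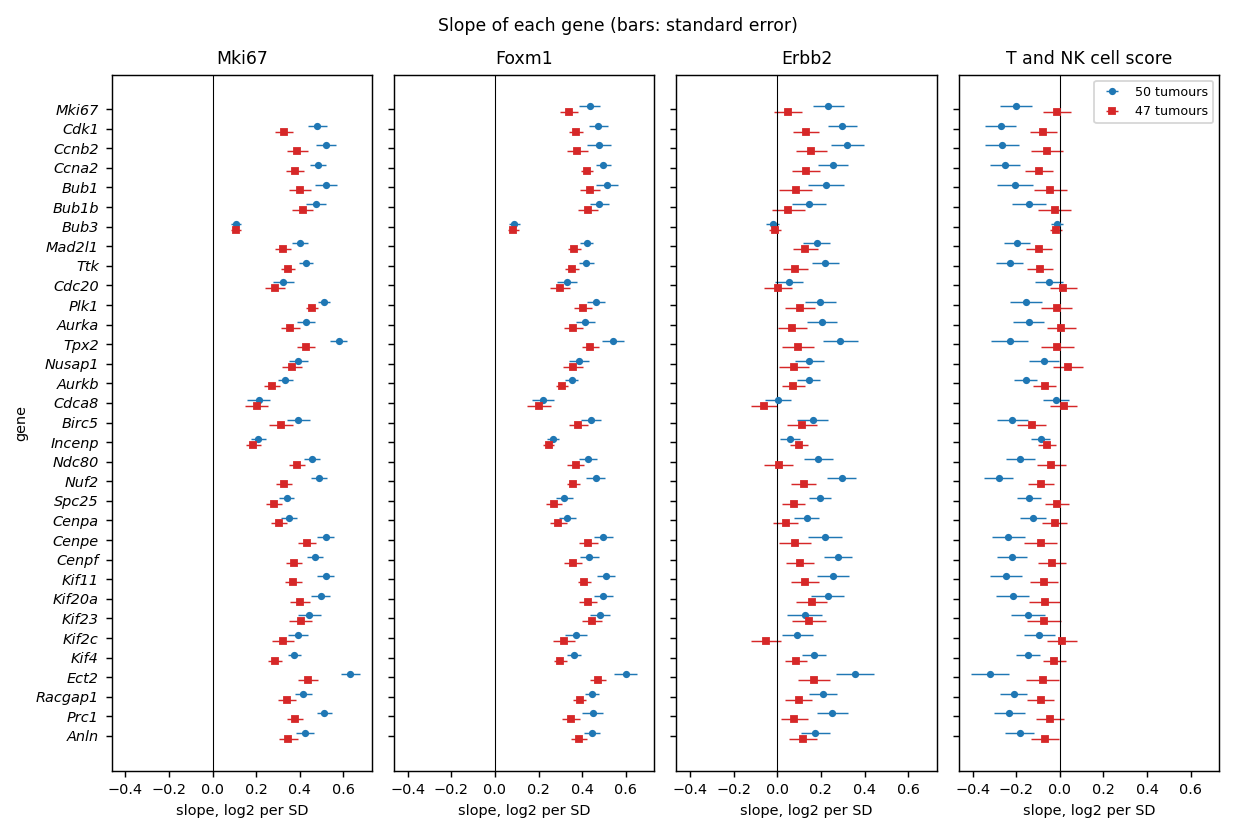
Slope of each gene (x axis, log2 units per SD of the predictor, bars are standard errors) on Mki67, Foxm1, Erbb2 and the T and NK cell score, genes by role (y axis), for all 50 tumours (circles) and for 47 without mid79, mid60 and mid100 (squares). On Mki67 and Foxm1 every square lies right of zero, while on Erbb2 and the immune score the squares lie near zero, with median slopes of 0.09 and -0.05. Mki67 has no slope on itself.

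The residual of each gene from the mean of the others was correlated between genes, to see what they shared beyond the common level. The 36 pairs on one chromosome had a median residual r of 0.36, and the 492 pairs on different chromosomes -0.05. The 3 genes of chromosome 4 stood out: Cdc20 with Cdca8 at 0.79, Cdc20 with Kif2c at 0.75 and Cdca8 with Kif2c at 0.73. They serve different functions, the checkpoint target, borealin and a depolymerase, and lie at chr4:118432901-118437343 (Cdc20), chr4:124918465-124936917 (Cdca8) and chr4:117159633-117182624 (Kif2c) in GRCm38.p6. The 15 pairs of chromosome 2 had a median of 0.39 and the 6 of chromosome 7 one of 0.35. The 6 pairs of chromosome 9 had a median of 0.07, down to -0.16 for Ccnb2 with Kif23, and on chromosome 3 Ccna2 had 0.02 with Cenpe and 0.50 with Ect2. Not every high pair shared a chromosome, as Cdk1 (chromosome 10) and Nuf2 (chromosome 1) had 0.71. Kif2c and Kif20a had the lowest residual r, -0.65. Residual correlations are centred near 0 by construction and are given as descriptions.

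A shift was computed for each tumour and chromosome. Each tested gene was first set against its own median over the tumours. The shift was the median of these values over the chromosome's tested genes outside the set, minus that over all tested genes. Each gene was then fitted on the shift with Foxm1 as covariate. The fit was chosen after the residuals were seen, for the 5 chromosomes with at least 3 genes of the set, and so is no independent support for the pattern in the residuals. The chromosome 4 shift ran from -0.16 (mid105) to 0.24 (mid87). All 3 genes on it rose with the shift, where 3.58% of the genes tested did, which were the genes of other chromosomes and the set. The slopes were 0.30 ± 0.03 for Cdca8 (SE, n = 50, limma adjusted p 1.98e-08), 0.25 ± 0.03 for Cdc20 (3.05e-07) and 0.27 ± 0.04 for Kif2c (5.4e-07). Of the 30 genes elsewhere 0 rose and 1 fell, where 8.18% of the genes tested fell, and that gene was Kif20a, at -0.12 (limma adjusted p 0.041). With no covariate, 1 of the 3 rose, Cdca8 at 0.22 (limma adjusted p 0.00259), while Cdc20 and Kif2c did not pass (0.117 and 0.136). In that fit 622 of 15609 genes tested rose and 1614 fell. Of the 30 genes of the set elsewhere 3 fell (Cdk1, Incenp and Kif20a), a share close to that of all genes. Cdca8 was highest in mid87, at 7.69 against a median of 6.33.

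Chromosome 2 carries 6 genes of the set, and all 6 rose with its shift (1.1% of the genes tested did and 1.01% fell), while 0 of the 27 elsewhere did. Aurka had 0.21 ± 0.03 (limma adjusted p 6.98e-05), Nusap1 0.20, Bub1 0.19, Bub1b 0.18, Tpx2 0.18 and Spc25 0.16 (0.00214). The shift was lowest in mid29 (-0.07) and highest in mid30 (0.17). Other genes of these chromosomes rose with the shift too, since they make it up: 36.7% on chromosome 2 and 55.4% on chromosome 4. The 4 genes on chromosome 7 had slopes of 0.17 (Mki67), 0.15 (Plk1), 0.15 (Prc1) and 0.08 (Bub3), none past the threshold (limma adjusted p 0.0712 to 0.151), where 0.00654% of all genes rose and 0.15% fell. The median slope of these 4 was 0.15, but 0.07 without the 2 tumours farthest from the median shift (mid111 and mid186). On chromosome 3 (Ccna2, Cenpe and Ect2) 0 of 3 rose, with 0 of 15851 genes called. On chromosome 9 (Anln, Ccnb2, Kif23 and Ttk) 0 of 4 rose, where 5.71% of all genes did and 3.18% fell. The cause of the shifts was not tested.

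**Figure D5:**
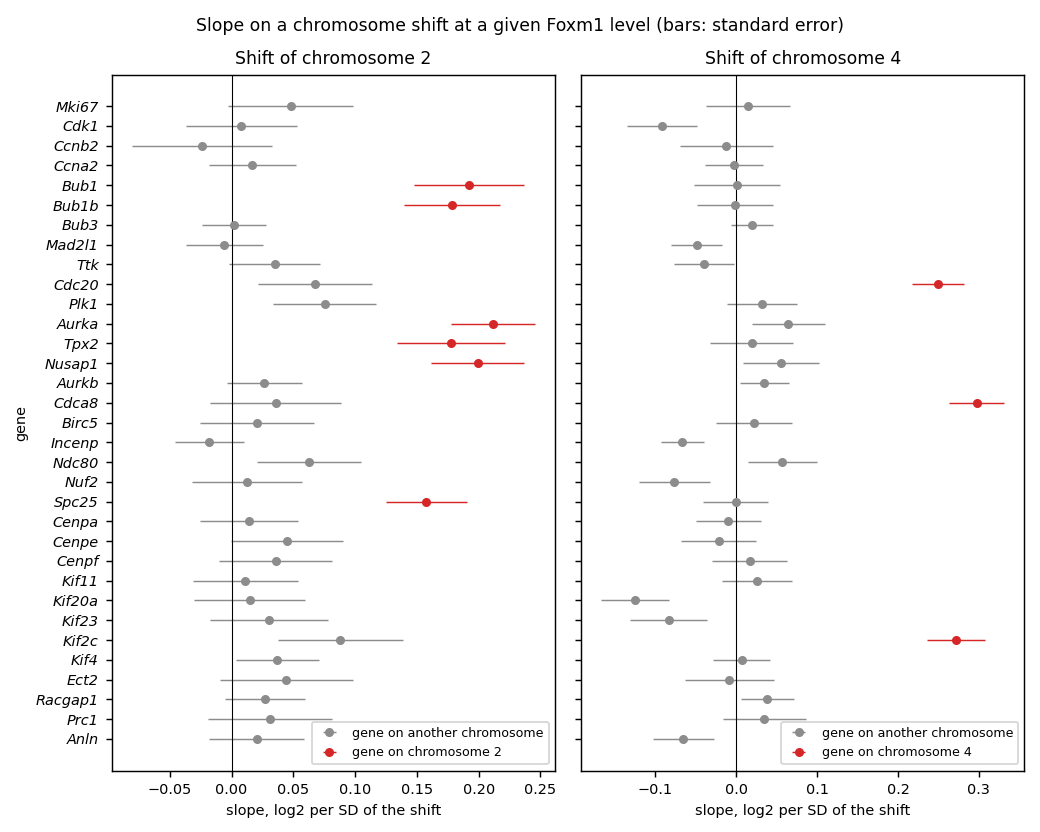
Slope of each of the 33 genes (y axis) on the shift of chromosome 2 (left) and chromosome 4 (right), in log2 units per SD of the shift at a given Foxm1 level (x axis, bars are standard errors, n = 50). The 6 genes of chromosome 2 and the 3 of chromosome 4, in red, lie to the right of every gene elsewhere.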

How the data were processed

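RNA from biopsies of 50 tumours was measured on Affymetrix arrays, 1 each. Per the labels' protocols, RNA was isolated by Trizol, and 6 ug of it was turned into biotinylated cRNA. The authors deposited log2 expression values after RMA, per the submitters' processing notes, which also name mm8 without its role. Its version was not given in the sources used. RMA includes quantile normalization, which would hide a change common to nearly the whole array.

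Of 34472 probe sets, 23521 name 1 gene in the platform annotation, 1814 name several and 9137 name no gene; 23328 of the first matched RefSeq identifiers while 193 did not. Per gene the one-gene probe set with the highest mean was used, and the filter kept means of at least 4.39 log2 (the 25th percentile of gene means). No pair of arrays was identical, and the highest r between arrays was 0.992. All columns were used.

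Slopes came from limma 3.58.1, with lmFit and a trended eBayes, on Mki67, Foxm1, Erbb2 or the mean standardised level of a marker list, each in SD units, with Benjamini-Hochberg adjusted p called under 0.05 and the predictor's own genes left out. On simulated data 82% of genes planted at a slope of 0.2 and 97% at 0.5 were recovered in the Mki67 regression of 16634 genes. The same run made 32 false calls among 211, 15.2%, above the 5% that the threshold sets. Pair correlations used 100000 permutations. The members and the gene lists were chosen with earlier results of these data known. Named genes were all members, the 10 highest and 5 lowest statistics outside the set on Mki67 and Foxm1, the regulators and the pairs and, per fit, the 3 firmest other mitosis genes. The last were Dlgap5, Hmmr and Kif22 with Mki67, Kif20b, Cdca2 and Dlgap5 with Foxm1, Spag5, Pbk and Cenpo with Erbb2, Cenpo, Pbk and Haus1 with T and NK cells, Ncaph2, Rhoa and Pbk with fibroblasts, Smc2, Rad21 and Ckap5 with hypoxia, and Spag5, Espl1 and Cdc27 with milk. Promoters were those of RefSeq on GRCm38.p6. Alternatives left out arrays, changed the filter, the probe set rule or the scaling of the predictor, weighted arrays, normalized again or added a covariate. Software was R 4.3.3 and Python 3.11.15 (pandas 2.3.3, scipy 1.17.1, numpy 2.4.6; plots by matplotlib 3.10.9).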

Additional observations from a re-analysis of the deposited data

How the results depend on the processing

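The counts for Mki67 (32) and Foxm1 (33) were the same under every alternative run. Changing the probe set rule could not alter the values of the set, as each gene had 1 one-gene probe set. Changing the filter left the slopes of the set as they were, so these runs are no check on them. The count for Erbb2 (23) was 0 without mid79, mid60 and mid100, without the 2 tumours farthest from the median (mid60 and mid79), with array weights and with normal scores of the predictor, was 10 with the fibroblast score as covariate, and was 0 without mid79 alone. The count for fibroblasts (4) was 0 without the 3 arrays, with array weights, with normal scores and without mid79 alone, 2 without mid100 alone and 11 after a second quantile normalization. The count for T and NK cells (21) was 0 without the 3 arrays, without the 2 farthest tumours (mid79 and mid147), with array weights and without mid79 alone, 2 with normal scores and 5 with the fibroblast score as covariate. The count for milk (0) was 1 without the 3 arrays, with array weights and without mid79 alone, and that for hypoxia was 0 throughout. Of the genes on chromosome 4, 1 of 3 rose with no covariate, where 622 of 15609 genes tested did. On chromosome 9, 3 of 4 rose with Mki67 as covariate, where 1335 of 15700 genes tested rose and 902 fell. Of the set elsewhere 4 of 28 rose in that fit and 1 fell, at a median slope of 0.04 against 0.11 for the 4 on chromosome 9. For the chromosome 7 shift with Mki67 as covariate, 18 of 29 genes of the set elsewhere fell, where 312 of 15286 genes tested did. Mki67 itself lies on chromosome 7, so this fit cannot tell a fall elsewhere from a rise of Mki67 with the shift. With Foxm1 as covariate 0 of 29 fell, at a median slope elsewhere of 0.03 against -0.12 with Mki67. The first component held 78.7% without the 3 arrays and 74.2% on ranks. The r of Mki67 and Myc was -0.12 without 2 tumours and -0.041 without 3. The SDs of 6 genes moved by over 1.5 times when taken from the median absolute deviation. The cause of these changes was not tested. The fits without single arrays, the looser filter on low genes and all chromosome fits were chosen after seeing the data. All tumours form 1 group without a control, depth has no counterpart on arrays, and probe sets of different genes cannot be ranked by level. No paired analysis was possible because there is 1 group.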
